A study of Mus musculus with 4 samples.

Results

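The STAT and JAK family genes were examined in mouse mammary tumour cells that differed in Pak1, the gene of a p21-activated kinase downstream of Rac and Cdc42. The members were chosen by name: every non-control probe whose gene name in the scanner output was Stat2, Stat3, Stat4, Stat5a, Stat5b, Stat6, Jak1, Jak2 or Tyk2. This gave 9 genes and 13 probes, of 31896 gene names and 39429 probes on the array. Where a gene had several probes, the probe with the brightest mean over the arrays stood for the gene, and the others were described beside it.

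JAK kinases (Jak1, Jak2, Jak3 and Tyk2) sit on the intracellular part of cytokine receptors and phosphorylate them when a ligand binds. STAT proteins dock on the phosphorylated receptor, are phosphorylated in turn, and enter the nucleus as dimers that bind GAS elements. After type I or type III interferon, STAT2 joins IRF9 in the complex called ISGF3, which binds the interferon-stimulated response element (ISRE). In the mammary gland, STAT5 acts downstream of prolactin in alveolar differentiation and milk protein expression, and STAT3 acts at involution and is often active in breast tumours.

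The cells were breast cancer lines grown out of tumours of MMTV-Neu mice, which carry the Neu (Her2) oncogene under the mouse mammary tumour virus promoter, and all 4 cell samples were therefore Her2 positive. Of the 4 samples, 2 were Pak1-/- and 2 were Pak1+/+, and the series describes 2 different tumours per group. All cells were grown in Low Calcium media with horse serum, starved of serum for 3 h and then given EGF for 15 min, so no unstimulated sample was compared. Total RNA was labelled with Cy3 and hybridised to 1-colour Agilent arrays, 1 array per sample.

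All 4 arrays lay on 1 slide, with the Pak1-/- samples at the first positions and the Pak1+/+ samples at the last, so position and genotype cannot be told apart. The median raw intensity was 322 to 331 per array, against a median local background of 39 to 42, and 62.2% to 70.4% of probes were well above background. The Pak1 probe was not lower in the samples labelled Pak1-/- (12.21 and 12.25 against 12.04 and 12.04, log2 difference 0.19, SE 0.07, adjusted p = 0.070), and whether it lies within the deleted part was not examined, so every direction below rests on the labels. Levels are normalized log2 intensities, a difference is Pak1-/- minus Pak1+/+ on that scale, and a call is an adjusted p under 0.05 in limma over 27229 probes. The p-values rest on 2 samples per group and measure only the spread between these samples.

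Within the family, 5 genes were higher in the Pak1-/- cells: Stat2, Jak1, Tyk2, Stat3 and Stat5a. All 13 probes were bright enough to be tested, 12 of them well above background on all 4 arrays, and none was saturated. None of the 9 was lower by its brightest probe in limma, and Stat4, Stat5b, Stat6 and Jak2 did not pass. At an unadjusted p under 0.05 in the same limma fit, 5 members were higher and 2 lower, Stat5b and Jak2. The share of all genes at that unadjusted cut was not worked out, and the shares that follow are at the adjusted threshold. Over all 22014 genes tested, 22.8% were called higher and 28.2% lower, so calls in either direction were frequent on these arrays. The median difference over the 9 members was 0.46, against -0.05 over all genes tested, and the median absolute difference was 0.46 against 0.32. Values of both genotypes lay fully apart for 8 members, which is to be read against 77.5% of all genes tested. Of the 9 members, 2 differed by at least 2-fold, Stat2 and Jak1, and the share of all genes at that size was not worked out.

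**Figure D1:**
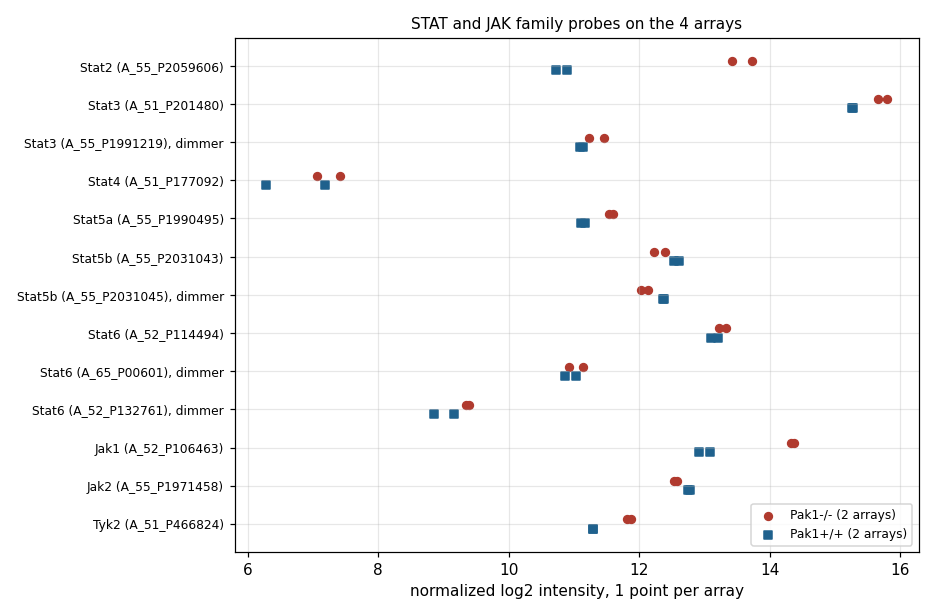
Normalized log2 intensity (x axis) of the 13 STAT and JAK family probes (y axis) on each of the 4 arrays, with circles for the 2 Pak1-/- arrays and squares for the 2 Pak1+/+ arrays. The Stat2 and Jak1 points of the 2 genotypes lie apart by 2.52 and 1.24, while those of Stat4 and of 1 Stat6 probe overlap; levels of different probes are not comparable.

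Stat2, the STAT that serves interferon signalling through ISGF3, had the largest difference of the family. Its single probe (A_55_P2059606, mm9 chr10:127729834-127729893) read 13.73 and 13.42 in the Pak1-/- samples and 10.72 and 10.90 in the Pak1+/+ samples. The raw intensities were 12781 and 11377 against 1727 and 1826. Both Pak1-/- samples were thus far above both Pak1+/+ samples, and the gap between the groups was wider than the distance between the 2 samples of either genotype. The log2 difference was 2.77 (SE 0.13, 95% confidence interval 2.41 to 3.12, adjusted p = 0.000298), or 6.80-fold. In bulk RNA, more cells that express a gene and more RNA per cell cannot be told apart, here and in all results below.

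The Stat2 promoter is shown because Stat2 moved most and because an ISRE-type match lies in it. The 300 bases from RefSeq (GRCm38.p6, chr10:128270248-128270547, plus strand, 250 bases before to 50 bases after the start) are written 5′ to 3′ with the match in capitals:
Stat2 promoter: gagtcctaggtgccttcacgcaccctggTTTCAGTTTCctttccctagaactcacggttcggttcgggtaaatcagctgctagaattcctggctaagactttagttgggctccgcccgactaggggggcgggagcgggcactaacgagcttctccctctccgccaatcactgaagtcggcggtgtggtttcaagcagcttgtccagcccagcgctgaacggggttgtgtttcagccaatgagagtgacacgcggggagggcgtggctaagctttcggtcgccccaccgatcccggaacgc

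The match, TTTCAGTTTC, lies 222 to 213 bases before the start and is the reverse complement form of the ISRE core searched, GAAANNGAAA, with both strands read. Promoters were found for all 9 members, 12 in all since some genes have several starts, and 2 of the 12 held this core. The other was a second start of Stat4, with GAAAGTGAAA at 97 to 88 bases before it. Of all 32851 mouse promoters of the same length, 3.44% held the core. The GAS form TTCNNNGAA was in none of the 12 member promoters and in 8.3% of all promoters. These matches describe the letters in the window only.

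Of the JAK kinases, Jak1 and Tyk2 were higher and Jak2 did not pass. Jak1, which serves interferon, IL-6 family and common gamma chain receptors, had a probe (A_52_P106463, mm9 chr4:100825094-100825153) at 14.37 and 14.32 in the Pak1-/- samples and 12.92 and 13.08 in the Pak1+/+ samples. The groups lay apart, and the log2 difference was 1.35 (SE 0.09, 95% confidence interval 1.12 to 1.57, adjusted p = 0.000601), or 2.54-fold. Tyk2, the partner of JAK1 at the type I interferon receptor, read 11.87 and 11.82 against 11.30 and 11.29 (A_51_P466824, mm9 chr9:20909321-20909380). Its replicates lay close together in both genotypes and its difference was 0.55 (SE 0.07, adjusted p = 0.00345), or 1.46-fold.

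Jak2, the kinase of the prolactin, growth hormone and erythropoietin receptors, read 12.58 and 12.54 in the Pak1-/- samples and 12.78 and 12.76 in the Pak1+/+ samples (A_55_P1971458, mm9 chr19:29387487-29387546). Both Pak1-/- values were below both Pak1+/+ values, by a small step. The difference of -0.21 (SE 0.07, 95% confidence interval -0.39 to -0.03) did not pass after adjustment (adjusted p = 0.056). It passed, with adjusted p = 0.0472, when only probes well above background on all 4 arrays were tested. Its interval lies below those of Jak1 and Tyk2, and the differences between the kinases were not tested.

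Stat3, the STAT of the IL-6 family of cytokines, was measured by a pair of probes 10.29 kb apart on mm9 chromosome 11. The brightest (A_51_P201480, chr11:100749598-100749657) was printed as 10 spots per array and read 15.81 and 15.66 in the Pak1-/- samples and 15.27 and 15.28 in the Pak1+/+ samples. The groups did not overlap, and the difference of 0.46 (SE 0.08, adjusted p = 0.00927) was 1.38-fold. The dimmer probe (A_55_P1991219, chr11:100759946-100760005) read 11.46 and 11.24 against 11.09 and 11.14, also without overlap. Its difference of 0.23 (SE 0.10, 95% confidence interval -0.03 to 0.49) did not pass (adjusted p = 0.118), so the call for Stat3 rests on its brightest probe. It came to 0.12 without Pak1-/- replicate 1 and to 0.34, then called (adjusted p = 0.0435), without Pak1-/- replicate 2.

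Stat5a and Stat5b are neighbouring, closely related genes that both carry prolactin and growth hormone signals, and Stat3 lies next to Stat5a with 0 protein-coding genes between them in the RefSeq order. The Stat5a probe (A_55_P1990495, mm9 chr11:100746373-100746432) read 11.54 and 11.60 in the Pak1-/- samples and 11.10 and 11.17 in the Pak1+/+ samples. The Pak1-/- values were the higher ones in both samples, with a difference of 0.43 (SE 0.07, adjusted p = 0.00805), or 1.35-fold. The brightest Stat5b probe (A_55_P2031043, chr11:100642045-100642104) ran the other way, at 12.40 and 12.23 against 12.53 and 12.60. Its difference was -0.25 (SE 0.09, 95% confidence interval -0.49 to -0.01) and did not pass (adjusted p = 0.076).

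The second Stat5b probe (A_55_P2031045, chr11:100642187-100642246), 0.08 kb from the first, read 12.14 and 12.03 in the Pak1-/- samples and 12.36 and 12.38 in the Pak1+/+ samples. It was lower in the Pak1-/- cells, by a difference of -0.29 (SE 0.08, adjusted p = 0.0326), and was the only one of the 13 family probes called lower. That call was lost in 7 of 13 alternative settings, so the Stat5b direction was alike in both probes while its call was not stable. The 95% intervals of Stat5a and Stat5b lay on opposite sides of 0, and the difference between these neighbours was not tested. The probes of Stat5a and Stat5b lay 104 kb apart on mm9, and those of Stat3 and Stat5a 3.17 kb apart.

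Stat6, the STAT of IL-4 and IL-13, had 3 probes, none of which passed. Its brightest (A_52_P114494, mm9 chr10:127097689-127097748) read 13.23 and 13.33 against 13.21 and 13.11, a difference of 0.12 (SE 0.08, adjusted p = 0.28). The values of the 2 genotypes nearly touched. A second probe (A_65_P00601, chr10:127095694-127095753) read 10.93 and 11.14 against 11.03 and 10.87, with overlapping groups and a difference of 0.09. The third (A_52_P132761, chr10:127083983-127084042), 13.65 kb from the brightest, read 9.39 and 9.34 against 8.86 and 9.16, a difference of 0.36 (SE 0.12, adjusted p = 0.065). Stat2 and Stat6 lie on the same chromosome with 26 protein-coding genes between them.

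The Stat6 probe that lies far from the brightest one is shown because it reads another stretch of the gene. Its difference was 0.20 without Pak1+/+ replicate 1, beside 0.17 for the brightest probe in the same setting, and 0.51, then called (adjusted p = 0.0257), without Pak1+/+ replicate 2. It was also called with cyclic loess normalization (adjusted p = 0.0349). It is a 60-base oligonucleotide, written 5′ to 3′, that reads open in 1 frame:
Stat6 A_52_P132761: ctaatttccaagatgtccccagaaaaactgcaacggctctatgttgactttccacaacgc

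Of the 13 family probes, 3 contained the polyadenylation hexamer AATAAA, those of Stat2 and Jak2 and the brightest of Stat5b. The base composition ran from 35.0% to 55.0% G and C. Between probes of different family genes, the longest shared run was 12 bases, in Stat4 and Stat5a.

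Stat4, the STAT of IL-12 in T and NK cells, had the only family probe (A_51_P177092, mm9 chr1:52163802-52163861) that was not well above background on every array. It was above background on both Pak1-/- arrays, at 7.06 and 7.42, and on 1 of the 2 Pak1+/+ arrays, which read 7.19 and 6.28. The groups overlapped, and the difference of 0.51 (SE 0.33, 95% confidence interval -0.36 to 1.37, adjusted p = 0.257) did not pass. Without Pak1+/+ replicate 2, the array on which it was not well above background, the difference came to 0.05. Without Pak1+/+ replicate 1 only that array was left in the group, so the value of 0.96 is set against a signal not well above background in 1 sample, and its adjusted p of 0.0163, which would make 6 members higher instead of 5, is no support for a difference.

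**Figure D2:**
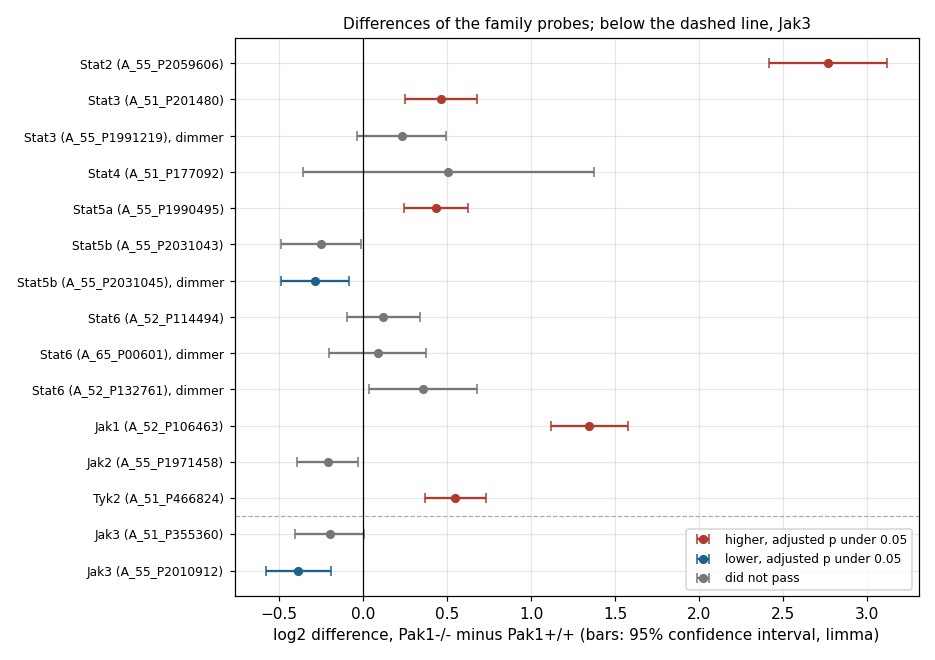
Log2 difference, Pak1-/- minus Pak1+/+ (x axis), of each family probe and, below the dashed line, of the Jak3 probes (y axis), with 95% confidence intervals from limma as bars and colour for the call. Stat2 (2.77) and Jak1 (1.35) stand to the right of the other members, and the Stat5b, Jak2 and Jak3 points lie left of 0.

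Jak3 also had probes and was not counted among the 9 genes. Jak3, the kinase of the common gamma chain in lymphocytes, was lower by its brightest probe (A_55_P2010912), at 10.23 and 10.24 against 10.58 and 10.67, a difference of -0.39 (SE 0.07, adjusted p = 0.0119). Its second probe (A_51_P355360) had a difference of -0.20 and did not pass.

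The 5 genes whose profile over the 4 arrays lay nearest to that of Stat2, by Euclidean distance between values centred on each gene's mean, were Tnfrsf11b, Olfml3, Serpinb6b, Alpl and LOC100045638, out of 19149 genes well above background on all arrays. The distances ran from 0.11 to 0.12. Their differences ran from 2.68 for Olfml3 to 2.80 for Serpinb6b, a closeness that the choice by distance fixes. The array has 4 values per gene, and likeness over so few values describes these samples only.

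The other genes of the pathway were read from the same fit in 5 lists. Among receptor chains, 23 of 27 were bright enough to test, and 6 were higher, 3 lower and 14 not past, with a median difference of 0.05. These counts are to be read against the 22.8% of all genes called higher and the 28.2% called lower. Ghr, the growth hormone receptor, rose most, from 9.22 and 9.14 in the Pak1+/+ samples to 11.63 and 11.54 in the Pak1-/- samples (difference 2.40, SE 0.08), and Ifnlr1, the ligand-binding chain for type III interferon (named Il28ra on the array), was higher by 1.16. Lifr, the receptor of leukaemia inhibitory factor, and Epor, the erythropoietin receptor, were lower, with differences of -1.44 at adjusted p = 0.00689 and -1.18 at adjusted p = 0.000569. Of the brightest receptor genes that did not pass, Csf3r had a difference of 0.41 and Prlr, the prolactin receptor, -0.19. The second Prlr probe was lower (-0.38, adjusted p = 0.0488).

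Of the interferon receptor chains, Ifnar1, Ifngr2 and Ifnlr1 were higher, Ifnar2, Ifngr1 and Il10rb did not pass, and the differences between chains were not tested. Ifnar1, a chain of the type I receptor that binds TYK2, was higher by 0.86 (SE 0.08, adjusted p = 0.00151), while its partner Ifnar2, which binds JAK1, read 14.16 and 14.10 against 14.02 and 14.14 with a difference of 0.05. Ifngr2, a chain of the interferon gamma receptor, was higher by 0.89 (SE 0.07), and Ifngr1 had a difference of 0.18 that did not pass. Il10rb, the shared chain of the type III interferon and IL-10 receptors, had a difference of -0.002. Il4ra, the chain that engages STAT6, was higher by 0.98 (SE 0.10, adjusted p = 0.00188), beside the brightest Stat6 probe at 0.12. Osmr, the oncostatin M receptor, was higher by 0.74, and Il6st, the shared IL-6 family chain gp130, had a difference of 0.14 that did not pass. Il6ra (0.24), Il11ra1 (-0.02) and Il13ra1 (-0.20), ligand-binding chains for IL-6, IL-11 and IL-13, did not pass either.

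Of 22 regulators of the pathway, all of which were tested, 9 were higher, 7 lower and 6 not past, against 22.8% higher and 28.2% lower over all genes, with a median of 0.16. Usp18, a protease that removes ISG15 and restrains type I interferon receptor signalling, read 15.68 and 15.68 in the Pak1-/- samples and 8.30 and 8.80 in the Pak1+/+ samples, a difference of 7.13 (SE 0.18). Nmi, a STAT-binding protein, was higher by 2.39 (SE 0.08). The feedback inhibitors of the SOCS group divided: Socs1 and Cish were higher by 1.35 and 1.34, whereas Socs2 (-2.20, SE 0.14) and Socs3 (-1.60, SE 0.08) were lower. All 3 Socs2 probes were lower. The brightest regulators that did not pass were Ptpn11, the phosphatase SHP2, at 0.23 and Sh2b1, an adaptor of JAK2, at 0.05.

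On the list of 12 ISGF3 targets, 10 were well above background on all 4 arrays, and all 10 were higher in the Pak1-/- cells, with a median difference of 7.05, where 22.8% of all genes were called higher. The other two, Mx1 and Rsad2, could pass the filter only through the Pak1-/- arrays, and with them 12 were called. Irf9, the DNA-binding part of ISGF3, read 14.65 and 14.62 against 11.66 and 11.97 (difference 2.82, SE 0.12), and Irf7, a factor that amplifies the interferon response, had a difference of 6.09. The antiviral effectors Oas2 (8.01), Ifit3 (7.66), Ifit1 (7.25), Oas1a (7.22), Mx2 (7.07), Ifi44 (7.03) and Oasl2 (6.80), and the ubiquitin-like Isg15 (6.18), had the other large differences. Mx1 and Rsad2 were not well above background on either Pak1+/+ array and were at least 7.69-fold and at least 85.2-fold higher, where the Pak1+/+ level was taken on each array as the higher of the gene's own signal and the lowest signal well above background. With both at these bounds the median of the 12 was 6.91. Stat2, at 2.77, had a difference close in size to that of Irf9, which was the smallest of the 12 targets.

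Of 15 STAT3 targets, 14 were tested, and 4 were higher and 7 lower, against 22.8% and 28.2% of all genes, with a median of -0.38. Socs3, Ccnd1 (cyclin D1, -1.34), Myc (-1.20) and Birc5 (survivin, -1.07) were lower by at least 1, in all 3 Birc5 probes, while Stat3 itself was higher by its brightest probe. Fos (0.98) and Mcl1 (0.64) were among the 4 that were higher. Bcl3 (-0.21) and Vegfa (-0.12) were the brightest that did not pass. These genes answer to many signals besides STAT3, and the list does not measure STAT3 activity.

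Of 11 STAT5 targets, 8 were tested, and 4 were higher and 1 lower, against 22.8% and 28.2% of all genes, with a median of 0.21. Csn1s1, a casein of milk, read 16.45 and 16.41 against 12.36 and 12.44 (difference 4.03, SE 0.07), whereas Csn2 and Wap, other milk proteins, did not rise well above background in any sample. Cish and Socs2, both known as targets and inhibitors of STAT5, went in opposite directions (1.34 and -2.20). Elf5, an alveolar transcription factor (-0.35), and Bcl6 (0.17) were the brightest that did not pass. Socs2, Socs3, Cish and Osmr stand on more than 1 list, so the lists are not independent.

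**Figure D3:**
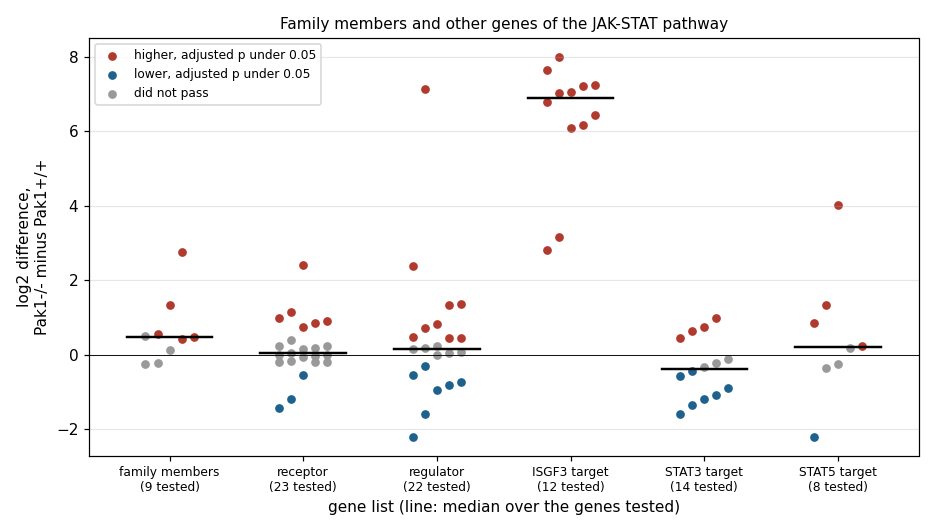
Log2 difference, Pak1-/- minus Pak1+/+ (y axis), of the genes tested among the family members and each of the 5 pathway lists (x axis), 1 point per gene by its brightest probe, coloured by call, with a line at the median. The 12 ISGF3 targets all lie above 2.8 while the other lists hold points on both sides of 0; Mx1 and Rsad2 are drawn at their fitted values (3.16 and 6.45), measured against a Pak1+/+ signal not well above background.

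Markers of cell types were read beside these results. The epithelial keratins Krt8 and Krt18 were bright on all 4 arrays, at 18.09 to 18.69 and 18.57 to 18.88. Of the 7 epithelial markers, 5 were higher in the Pak1-/- samples, against 22.8% of all genes, with Krt14 at a difference of 2.83 and Cdh1 at 1.19, and Krt19 (-0.64) and Epcam (-0.23) did not pass. Of 18 leukocyte markers, 8 were bright enough to test, of which 4 were lower, against 28.2% of all genes, and 4 did not pass, and 7 stayed dim on every array, among them Cd3g, Ms4a1, Ncr1, Lyz2, Tyrobp and Laptm5. Their summed raw intensity was 116000 to 117100 in the Pak1-/- samples and 219400 to 244200 in the Pak1+/+ samples. Cd14, a marker of monocytes that other cells can also express, carried this fall (difference -1.70, SE 0.10). Without it the other 17 summed to 73570 and 61200 in the Pak1-/- samples and 58810 and 50880 in the Pak1+/+ samples, the opposite order, and this in turn rested on Itgam (difference 0.49, adjusted p = 0.110, not past). Without both, the other 16 summed to 12100 and 13020 in the Pak1-/- samples and 13950 and 13560 in the Pak1+/+ samples. Fcer1g (-0.37, adjusted p = 0.0269) and the brightest Cd4 probe (-0.35, adjusted p = 0.0182) were lower, while the second Cd4 probe (-0.08) did not pass. Ptprc (CD45), the marker of all leukocytes, was lower, at 7.15 and 7.14 against 7.59 and 7.60 (difference -0.45, adjusted p = 0.00559). These values lay near the lowest signal well above background (6.74 as a mean over the arrays), at raw intensities of 124 and 130 against 179 and 182. Of 7 fibroblast markers, 3 were tested, of which Col1a1 was higher (9.31 and 8.88 against 8.03 and 7.93, difference 1.12, SE 0.16, adjusted p = 0.00512) and Col1a2 and Pdgfra did not pass, while Dcn, Lum and Pdgfrb stayed dim on every array. The summed raw intensity of the fibroblast list was 1180 to 1404 in the Pak1-/- samples and 1028 to 1056 in the Pak1+/+ samples. Of 4 endothelial markers, the 3 tested (Pecam1, Cdh5 and Kdr) did not pass by their brightest probes, and Tek stayed dim on every array. Cdh5 was well above background on only 1 array per genotype, at 6.66 and 8.04 against 6.41 and 7.77. The second Kdr probe was higher (difference 1.37, SE 0.08, adjusted p = 0.000463), but it was well above background on only 2 of the 4 arrays. The endothelial sums were 9750 to 10190 in the Pak1-/- samples and 9224 to 10570 in the Pak1+/+ samples. The part of these marker differences in the family's values was not tested.

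Stat2 and then Jak1 had the largest differences of the family as reported and in every alternative with values per probe. Stat2 ranged from 2.61 to 2.92 over 13 alternatives, Jak1 from 1.27 to 1.43, Tyk2 from 0.52 to 0.63, Stat5a from 0.40 to 0.52 and the brightest Stat3 probe from 0.36 to 0.57. All 5 stayed called in each alternative. Stat4 ranged from 0.05 to 1.15, the widest span of the family.

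**Figure D4:**
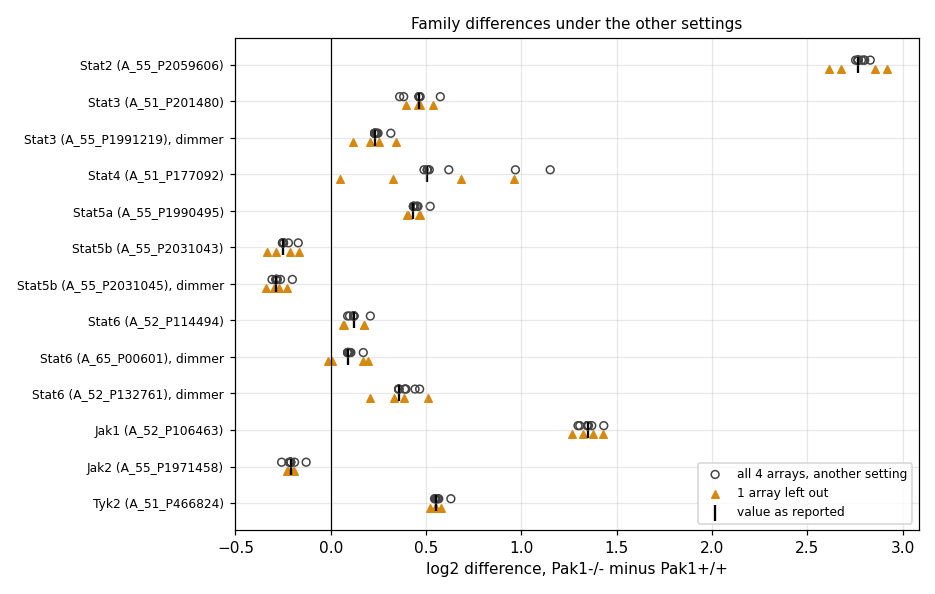
Log2 difference, Pak1-/- minus Pak1+/+ (x axis), of the 13 family probes (y axis) as reported (vertical bar), with other processing of all 4 arrays (open circles) and with 1 array left out (triangles). The Stat2 and Jak1 values stay at or above 2.61 and 1.27 in every setting, those of Stat4 spread from 0.05 to 1.15, and 1 Stat6 probe crosses 0.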

How the data were processed

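Scanner output of 4 one-colour Agilent arrays was used. The authors extracted spot intensity from the scans with Feature Extraction (9.5.3.1 per the file headers), and they also deposited a table of normalized log2 values, used as an alternative. Here the mean signal intensity was background-corrected (normexp, offset 50) and quantile normalized, spots of 1 probe were averaged, and the 27229 of 39429 probes that exceeded background clearly on 2 or more of 4 arrays were tested for genotype with limma 3.58.1 in R 4.3.3, two-sided, with Benjamini-Hochberg adjustment over all of them. An exact permutation test of 2 against 2 samples cannot go below p = 0.333, so none was used. Coordinates are those of the scanner files (mm9), and promoters are RefSeq's (GRCm38.p6).

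The members and gene lists were chosen with earlier results of these data known. Named genes were all members and, per list, called genes with an absolute log2 difference of at least 1 and the 2 brightest that did not pass, with other genes of the family by values alone, some of which are not reported here. Further list genes (Ifnar1, Ifnar2, Ifngr1, Ifngr2, Il10rb, Il4ra, Il13ra1, Osmr, Il6st, Il6ra, Il11ra1, Fos, Mcl1, Csn2 and Wap) and second probes were named after their values were seen.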

Additional observations from a re-analysis of the deposited data

How the results depend on the processing

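The alternatives were other background offsets and scalings, other filters, the authors' value table, the mean over probes, a threshold of 0.01 and leaving out each array. Of the values of family probes under them, 155 had the reported direction and call, 7 were no longer called (all of the second Stat5b probe), 5 became called (1 of them Stat4 against a single Pak1+/+ array not well above background) and 1 reversed, a Stat6 probe (A_65_P00601) that ran from -0.017, without Pak1-/- replicate 2, to 0.195 with 1 array left out. The count of members lower was 1 instead of 0 with the filter on all 4 arrays (Jak2) and with the mean over probes. STAT5 targets lower numbered 2 instead of 1 with 75th percentile scaling after normexp and with the filter on all 4 arrays, and 1 to 3 with 1 array left out (3 without Pak1-/- replicate 2). The other 153 counts stayed within 1.5 times. The cause of these changes was not tested.

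Samples that share a number did not deviate together (r = -0.03 across probes). With a replicate block, 5 members were higher and 0 lower, Stat2 was at 2.77 and the second Stat5b probe at -0.29 (adjusted p = 0.0601, call lost), and 13211 probes were called instead of 14132. Stat4, not well above background on 1 array, has a bound rather than a level there, and 2 samples per group limit all values.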
